A study of Mus musculus with 10 samples.

Results

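The gasdermins are a small family of pore-forming proteins, examined here as transcripts in mouse keratinocytes with and without the small GTPase RhoA, a regulator of the actin cytoskeleton. The genes were chosen by the measured response of the family to RhoA loss in culture, and the members are all probe sets of the array whose platform annotation names Gsdma, Gsdmc, Gsdmc2, Gsdmc3, Gsdmc4, Gsdmd or Gsdme, the last also known as Dfna5. A probe set is a group of short probes that together read 1 transcript. The rule gave 8 of the 45037 probe sets, covering 6 of the 7 genes. No probe set annotated to Gsdmc3 was found, so that gene is not analysed here. Of the 8, Gsdma had 2 probe sets (1423634_at and 1457777_at), Gsdme 2 (1421534_at and 1417903_at), Gsdmd 1 (1428767_at) and Gsdmc2 1 of its own (1454883_at). The other two are shared between gasdermins: 1419591_at is annotated to both Gsdmc2 and Gsdmc, and 1430641_at to both Gsdmc2 and Gsdmc4. The transcript that the annotation lists for 1419591_at is that of Gsdmc in RefSeq, so Gsdmc and Gsdmc4 were read only through shared probe sets.

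A gasdermin has a pore-forming amino-terminal domain that its carboxy-terminal domain holds inactive until a protease cuts the linker between them. The freed fragments assemble in the plasma membrane, release interleukin-1 family cytokines and can end in lytic death, called pyroptosis. In skin, Gsdma and the Gsdmc genes are known from differentiating epithelial layers, whereas Gsdmd and Gsdme are cut by caspases in many cell types. In the mouse genome Gsdma lies beside its copies Gsdma2 and Gsdma3 on chromosome 11. The Gsdmc genes form a cluster on chromosome 15 in the order Gsdmc, Gsdmc2, Gsdmc3 and Gsdmc4, with pseudogenes between and after them, and Gsdmd lies further along the same chromosome. Gsdme is on chromosome 6.

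Expression was measured on 10 arrays in 4 groups. RhoA-null samples, called KO here, carried the genotype RhoA fl/fl K5 cre, and the samples called wildtype in the titles carried RhoA fl/+ K5 cre, so the controls also had Cre and a single floxed allele. K5 cre is driven by a keratin promoter active in basal keratinocytes. Cells of a skin preparation that neither had this activity nor descend from cells that had it would keep RhoA. Keratinocytes were freshly isolated from epidermis (2 control and 2 KO arrays) or grown as primary cultures (3 control and 3 KO arrays). The labels call them biological replicates without naming animals, ages or pools, so a p-value here refers to the variation among these particular samples.

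Values are linear signal units made by the authors, and fresh and cultured arrays were on different scales, with array medians of 64.1 to 64.8 and 7.75 to 8.0. Signals were therefore compared between genotypes only within a condition, and between conditions only as percentiles within an array. A signal under the median of its own array is called a floor signal in cultured cells and a below-median signal in fresh cells. In culture 21491 probe sets lay at the floor on all 6 arrays, where the highest value was typically 1.02 times the lowest, so a floor signal carries no order between samples. Of the targeted gene, probe set 1437628_s_at of Rhoa read 9240 to 11250 in cultured controls and 7628 to 8209 in cultured KO (limma adjusted p = 0.156 for a log2 change of -0.36), and 3526 and 4059 in fresh controls against 4398 and 4296 in fresh KO. A second probe set, 1450632_at, gave the same order, and the third, 1443768_at, was at the floor in culture. Fresh KO arrays were thus not lower in Rhoa signal than fresh controls. The sources used here do not say where these probes lie relative to the floxed exon, so they do not check the genotype, and KO below means the arrays labelled RhoA fl/fl K5 cre.

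Basal keratin transcripts Krt5 and Krt14 read 46740 to 59210 on cultured arrays and 21550 to 27350 on fresh arrays, in units not compared between conditions. Another basal keratin, Krt15, read 17210 to 20240 on fresh arrays and lay at the floor in culture, at 3.76 to 4.69. Of 8 Langerhans cell and myeloid markers, 7 lay at the floor on every cultured array. Among fresh arrays KO replicate 2 stood apart: 9 of 10 hair follicle markers were highest on it, and their summed signal was 46350 against 4858 to 6763 on the other arrays.

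In culture, the Gsdmc2 probe set read about 100 units on each KO array and lay at or near the floor on each control array. Gsdma was higher in KO cells by both of its probe sets on average, with KO replicate 1 far below the other KO arrays. Gsdme had a strong signal of similar size in both genotypes, and Gsdmd lay at the floor. In fresh cells Gsdma was higher in both KO arrays than in both controls, and the Gsdmc group followed the array rather than the genotype.

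**Figure D1:**
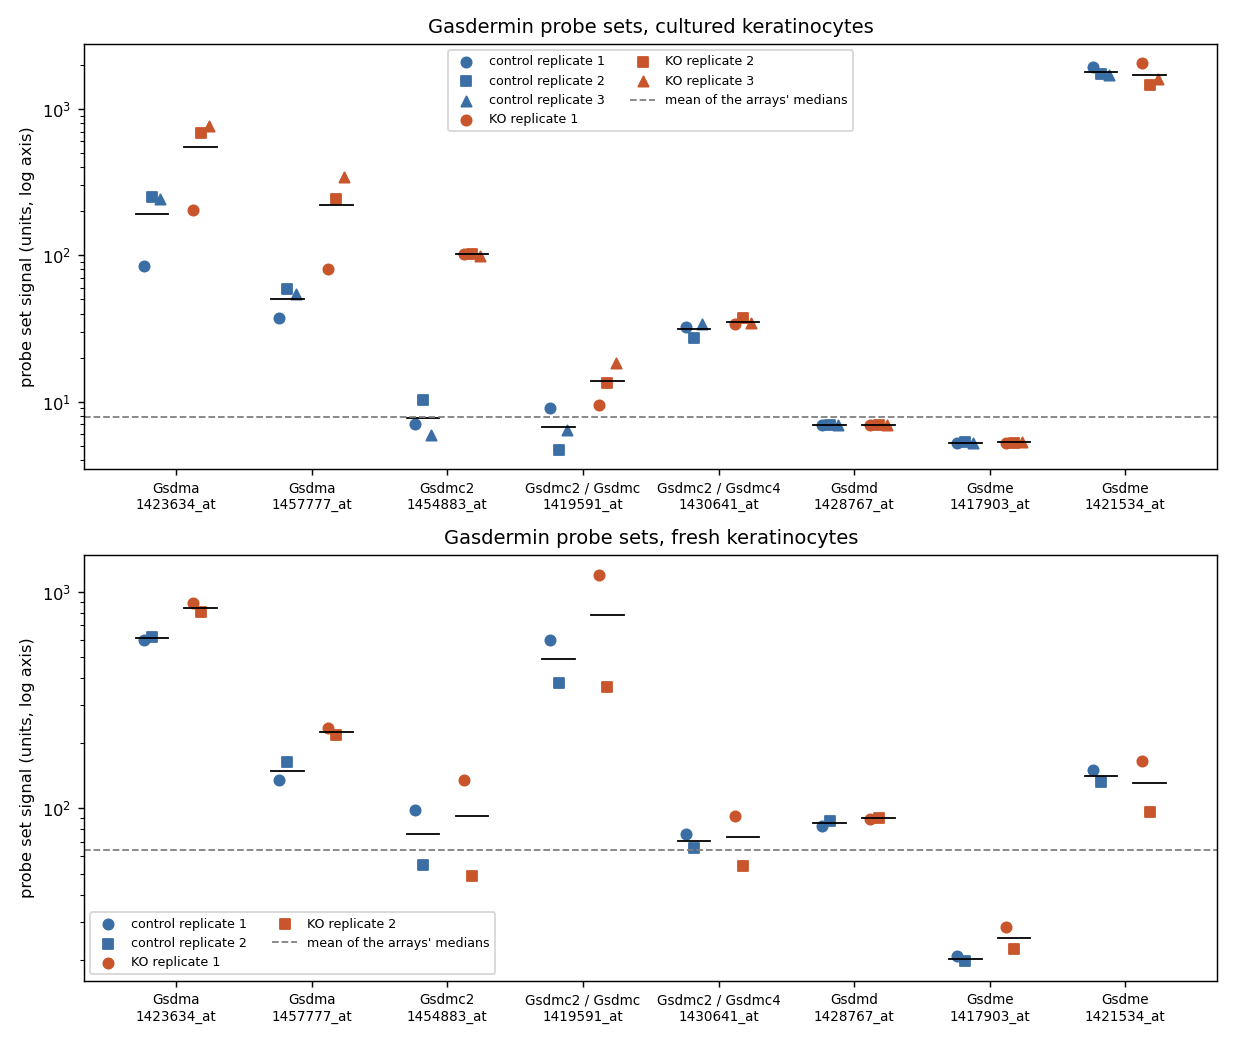
Signal of the 8 gasdermin probe sets on each array, cultured above and fresh below, on log axes in signal units. Points are arrays, colour gives the genotype, shape the replicate and the black bars the group means. The dashed line is the mean of the arrays' medians. In culture the 3 KO arrays read 98.98 to 102.6 for Gsdmc2 against 5.96 to 10.2 in controls, while Gsdmd and one Gsdme probe set lie under the line.

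The family was proposed with the cultured contrast already known, in particular the rise of Gsdmc2. The cultured KO values of the members are therefore a description, given without p-values. The calls of the fit across all probe sets are only counted. Gsdmc2, a mouse copy of the gene for gasdermin C, gave 7.03, 10.2 and 5.96 signal units in cultured controls 1 to 3 and 102.6, 102.4 and 98.98 in KO 1 to 3. The groups are far apart, and the 3 KO arrays lie closer to each other (101 ± 2.03, SD, n = 3) than the KO arrays of any other gasdermin above the floor do in relative terms. Controls 1 and 3 lay under their array medians and control 2 above its own. The log2 change was 3.75 (SE 0.20), or 13.4-fold, but its size rests on where the authors' procedure put the floor. With every value under 16 set to 16 it was 2.66 on the log2 scale, or 6.33-fold, and with 16 added to every value 2.31, or 4.95-fold.

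The shared probe sets of the same cluster did not show a change of that size. The one annotated to Gsdmc2 and Gsdmc read 9.10, 4.68 and 6.39 in cultured controls and 9.52, 13.4 and 18.4 in KO. KO replicate 1 was barely above control replicate 1, and the whole range is near the floor. Its log2 change was 1.04 (SE 0.32) and was 0.07 once values under 16 were set to 16. The one annotated to Gsdmc2 and Gsdmc4 read 32.3, 27.3 and 34.1 in controls and 34.1, 37.3 and 34.3 in KO. Here the groups nearly touch, at 34.07 in control replicate 3 and 34.13 in KO replicate 1, and the log2 change was 0.18 (SE 0.11). The 3 probe sets that name Gsdmc2 thus gave 13.4-fold, 2.05-fold and 1.13-fold changes on the same 6 arrays. Which transcripts of the cluster each of them binds was not tested.

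Gsdma, which encodes the gasdermin best known from differentiating epidermis and hair follicle, read 84.5, 248 and 244 by probe set 1423634_at in cultured controls 1 to 3. The KO arrays gave 204, 687 and 760. KO replicates 2 and 3 lie above all controls and KO replicate 1 lies among them, so the groups overlap. The second probe set, 1457777_at, read 37.4, 59.1 and 54.8 in controls and 80.2, 242 and 342 in KO. By this probe set all KO arrays lie above all controls. The log2 changes were 1.46 (SE 0.66) and 1.92 (SE 0.55), or 2.75-fold and 3.79-fold, and the floor settings left them at 1.37 to 1.46 and 1.65 to 1.92. Control replicate 1 and KO replicate 1 were the lowest of their groups on both probe sets.

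Suprabasal keratinocyte markers were also higher in cultured KO cells. Their summed signal over 10 matched genes was 39950 to 48590 in controls and 59480 to 75640 in KO. Sbsn and Calm4 set the order of the sum within a group, lowest on replicate 1 as for Gsdma, while control replicate 1 was the highest control for Krt1, Krt10, Krtdap and Ivl. Of the 10, 7 were higher in every KO array than in every control, beside 10.1% of all probe sets tested in culture. Krt1 stayed low throughout, at 4.30 to 26.7. Melanocyte markers summed to 217, 475 and 259 in controls and 418, 780 and 1315 in KO. The part of either list in the Gsdma values was not tested.

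Gsdme, also known as a deafness gene, read 1946, 1735 and 1703 in cultured controls by probe set 1421534_at. The KO arrays gave 2047, 1446 and 1588. The KO arrays span the control range on both sides, and the log2 change was -0.10 (SE 0.14). The second Gsdme probe set, 1417903_at, read 5.24 to 5.31 on all 6 arrays, at the floor. Gsdmd, whose product is the target of the inflammatory caspases Casp1 and Casp4, also lay at the floor on every cultured array, at 6.88 to 6.98. A change in Gsdmd in culture was therefore not detectable with this probe set.

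In culture 6 of the 8 probe sets passed the filter, which asked for a signal above the array median on 2 or more arrays of that condition. Gsdmc2 and the probe set of Gsdmc2 and Gsdmc passed through the KO arrays, with 2 of 3 controls under the array median. Of the 6, 1 was called by limma at an adjusted p under 0.05, Gsdmc2, beside 0.273% of all 22682 probe sets tested, and 0.181% when only those higher in KO are counted. All KO arrays lay above all controls for 4 of the 6, beside 10.1% of all probe sets. They lay below all controls for 0 of the 6, beside 12.2%, and groups separated in either direction for 22.3% of all probe sets. The Gsdmc2 call was lost when control replicate 3, KO replicate 2 or KO replicate 3 was left out, while its log2 change stayed at 3.58 to 3.97 over all 6 omissions. Since the contrast was known when the family was proposed, nothing is read from these counts.

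**Figure D2:**
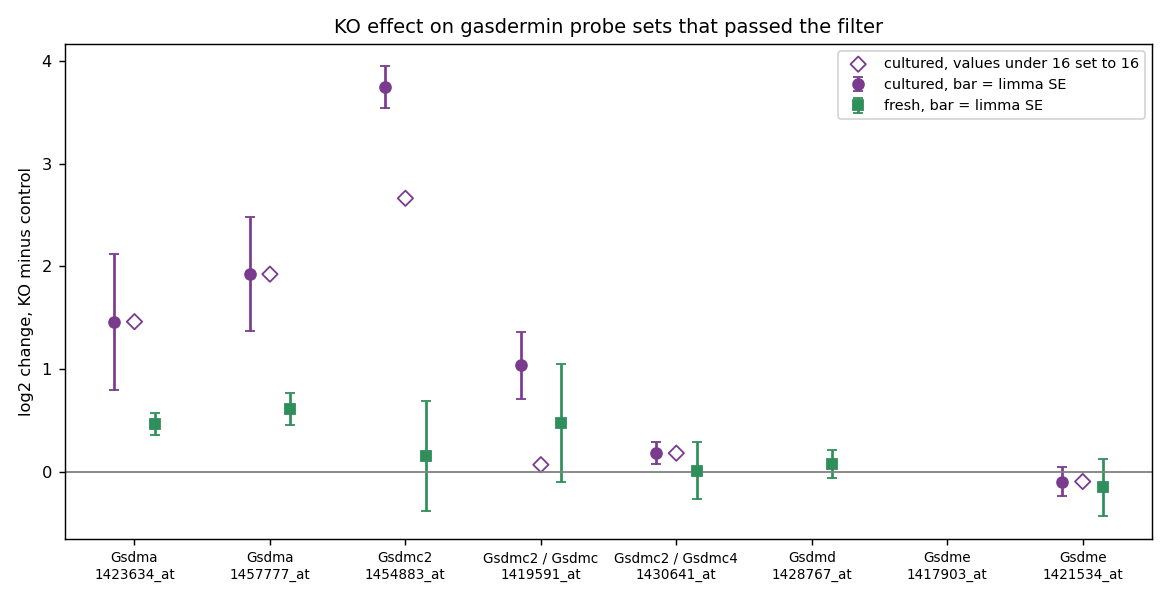
Log2 change, KO minus control, of the gasdermin probe sets that passed the filter, in culture and in fresh cells, with limma's standard error as bars. Open diamonds give the cultured change after values under 16 were set to 16. The Gsdmc2 value moves from 3.75 to 2.66 and that of the probe set shared with Gsdmc from 1.04 to 0.07, while Gsdma and Gsdme stay in place.

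In fresh cells the same contrast was tested on other samples, in which Rhoa signal was not lower on the arrays labelled KO. None of the 7 gasdermin probe sets that passed the filter was called, beside 0.0% of all 22893 tested, and 2 of 7 had an unadjusted p under 0.05, beside 12.9%. Both were those of Gsdma. By 1423634_at Gsdma read 602 and 620.1 in fresh controls and 885 and 804 in KO (log2 change 0.47, SE 0.11, limma adjusted p = 0.289). By 1457777_at it read 135 and 163 in controls and 235 and 217 in KO (log2 change 0.61, SE 0.15, limma adjusted p = 0.297, n = 2 per group). Both KO arrays exceeded both controls on each probe set, a difference of 1.38-fold and 1.52-fold that did not pass the threshold. The direction was the same without KO replicate 2, the array with the hair follicle transcripts, at 0.54 and 0.66. The difference between the fresh and the cultured Gsdma values was not tested.

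Groups did not overlap, with KO higher, for 3 of the 7 fresh probe sets, beside 23.5% of all probe sets, and 46.9% separated in either direction. Besides Gsdma this was Gsdmd, with 83.1 and 87.9 units in controls and 89.4 and 90.5 in KO. That difference of 1.05-fold (log2 change 0.07, SE 0.14, limma adjusted p = 0.847) is smaller than its error. The second Gsdme probe set read 19.7 to 28.2, below the median on each fresh array, and was not tested.

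The Gsdmc probe sets differed more between fresh arrays of one genotype than between genotypes. The one shared by Gsdmc2 and Gsdmc, the Gsdmc-derived one, read 599 and 378 in controls and 1202 and 364 in KO (log2 change 0.48, SE 0.57, limma adjusted p = 0.753). Gsdmc2 read 98.0 and 55.0 in controls and 136 and 48.8 in KO (log2 change 0.15, SE 0.54, limma adjusted p = 0.926). The one shared by Gsdmc2 and Gsdmc4 read 75.9 and 65.4 in controls and 92.5 and 54.4 in KO (log2 change 0.01, SE 0.28, limma adjusted p = 0.991). On all 3 the KO arrays bracket the controls, with KO replicate 1 highest and KO replicate 2 lowest.

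Gsdme, by 1421534_at, followed the same order in fresh cells, with 150 and 132 in controls and 166 and 96.3 in KO (log2 change -0.15, SE 0.28, limma adjusted p = 0.843). The order of KO 1, control 1, control 2 and KO 2 from high to low was thus shared by 4 of the 7 tested gasdermin probe sets, and by 5.51% of all probe sets tested. This order was noticed in the values themselves, and Gsdma did not follow it. The Gsdmc probe sets among the 4 all name Gsdmc2, so they are not separate members. Nothing is read from the count. The direction of the Gsdmc and Gsdme values depended on single arrays. Without KO replicate 2 the probe set of Gsdmc2 and Gsdmc was at 1.34 on the log2 scale and without KO replicate 1 at -0.39. Gsdmc2 was at 0.89 without KO replicate 2 and at -0.27 without control replicate 2, and Gsdme at 0.24 without KO replicate 2 and at -0.55 without KO replicate 1.

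**Figure D3:**
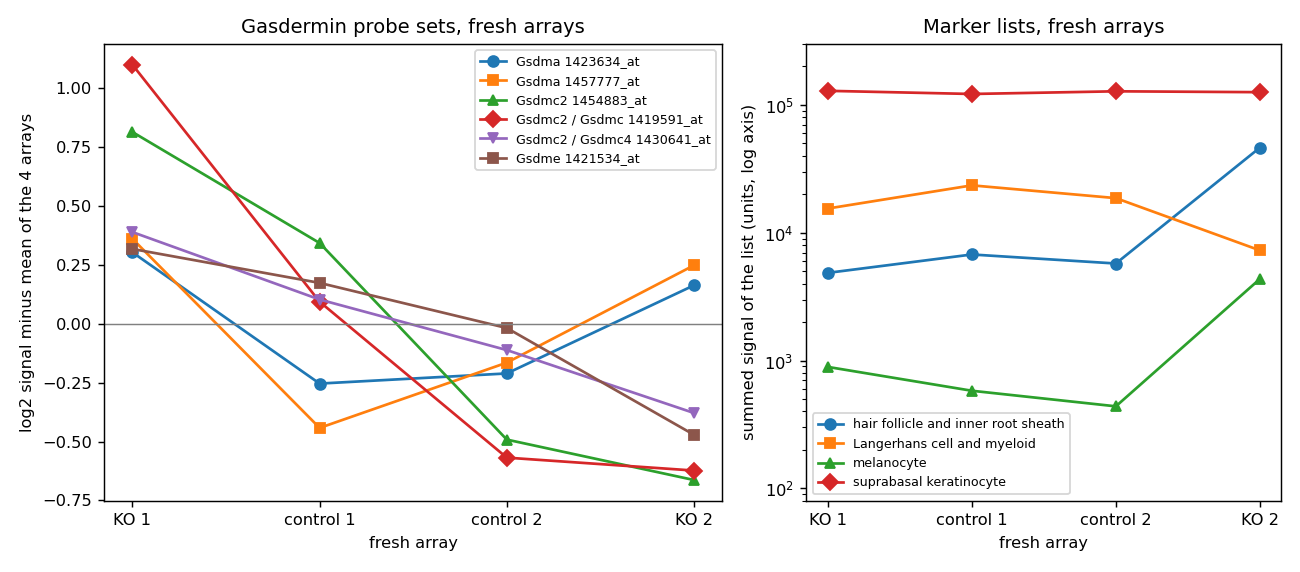
Left, log2 signal of the 6 gasdermin probe sets that passed the filter in culture, on the 4 fresh arrays, as the difference from the mean of these arrays. Right, summed signal of 4 marker lists on the same arrays, on a log axis in signal units. The Gsdmc probe sets and Gsdme fall from KO 1 to KO 2, whereas Gsdma is higher on both KO arrays, and the hair follicle sum is 46350 on KO 2.

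Markers of other cells also differed between the fresh arrays. The Langerhans cell and myeloid list summed to 23500 and 18670 in controls and 15480 and 7285 in KO, with all 8 markers lowest on KO replicate 2. Melanocyte markers summed to 581 and 439 in controls and 892 and 4350 in KO, and 5 of 5 were highest on KO replicate 2. The 3 T cell markers summed to 2535 and 1758 in controls and 2514 and 1973 in KO, lower on replicate 2 of both genotypes, as were the Gsdmc probe sets. Of the 3, Cd3e did not follow this order in KO, at 368 and 385. The T cell sum was lowest on control replicate 2, the Gsdmc probe sets on KO replicate 2. The Langerhans cell and myeloid sum was also lower on replicate 2 of both genotypes. So was the sebaceous gland sum, at 538 and 464 in controls and 407 and 346 in KO. The other marker lists were not. In culture Cd3g and Cd3d lay at the floor, whereas the Cd3e probe set read 6479 to 6822. Suprabasal markers summed to 121900 to 129000, most of it from Krt10, Krtdap and Sbsn. Of the 10, 5 were higher on both KO arrays than on both controls, as was Gsdma, among them Krt1, Ivl, Flg and Calm4, and 2 were lower, among them Lor at 7810 and 11960 in controls and 6056 and 3540 in KO. Fibroblast markers summed to 303 and 278 in controls and 445 and 1344 in KO, with 1012 on KO replicate 2 from Dcn. All 6 were higher on both KO arrays, also as Gsdma was, but 3 of the 6 lay below the median on every fresh array. Of the melanocyte markers 5 of 5 were higher on both KO arrays. In contrast, 5 of 7 basal keratinocyte and 6 of 8 Langerhans cell and myeloid markers were lower on both. Of all probe sets tested in fresh cells, 23.5% were higher on both KO arrays and 23.5% lower. The part of these cells in the gasdermin values was not tested, and in such bulk samples fewer cells of a type and less RNA per cell cannot be told apart.

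Cultured and fresh cells were set side by side by the percentile of each probe set within its array. Gsdme (1421534_at) stood at percentiles 87.4 to 90.1 on cultured arrays and 57.8 to 66.0 on fresh ones, so every cultured array ranked it above every fresh array. The probe set of Gsdmc2 and Gsdmc went the other way, at 77.0 to 91.0 in fresh cells and 17.9 to 58.2 in culture. Gsdma (1423634_at) stood at 83.5 to 88.1 in fresh cells, 65.6 to 72.9 in cultured controls and 71.5 to 82.3 in cultured KO. The cultured KO replicates 2 and 3 came closest to the fresh range without reaching it. Its second probe set, at 62.7 to 70.8 in fresh cells and 61.6 to 75.4 in culture, did not separate the conditions.

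Gsdmc2 was at percentile 42.6 to 63.2 in fresh cells, 38.6 to 54.3 in cultured controls and 66.4 to 66.8 in cultured KO. The cultured KO arrays thus ranked it above each fresh array, controls and KO alike. Gsdmd stood at 54.9 to 56.7 in fresh cells and at 45.4 to 46.2 in culture, near the middle of the array in both. Of the 8 probe sets, 3 ranked higher on every fresh array and 3 on every cultured array, beside 40.0% and 43.1% of all probe sets. Such a separation was therefore common, and the low-signal ranks depend on how the authors processed each condition. Among those low-signal ranks are Gsdmd, counted for fresh cells but at the floor in culture, and Gsdme 1417903_at. The latter, counted for culture at 29.1 to 29.8 against 10.25 to 23.1 in fresh cells, was at the floor or below the median on every array.

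**Figure D4:**
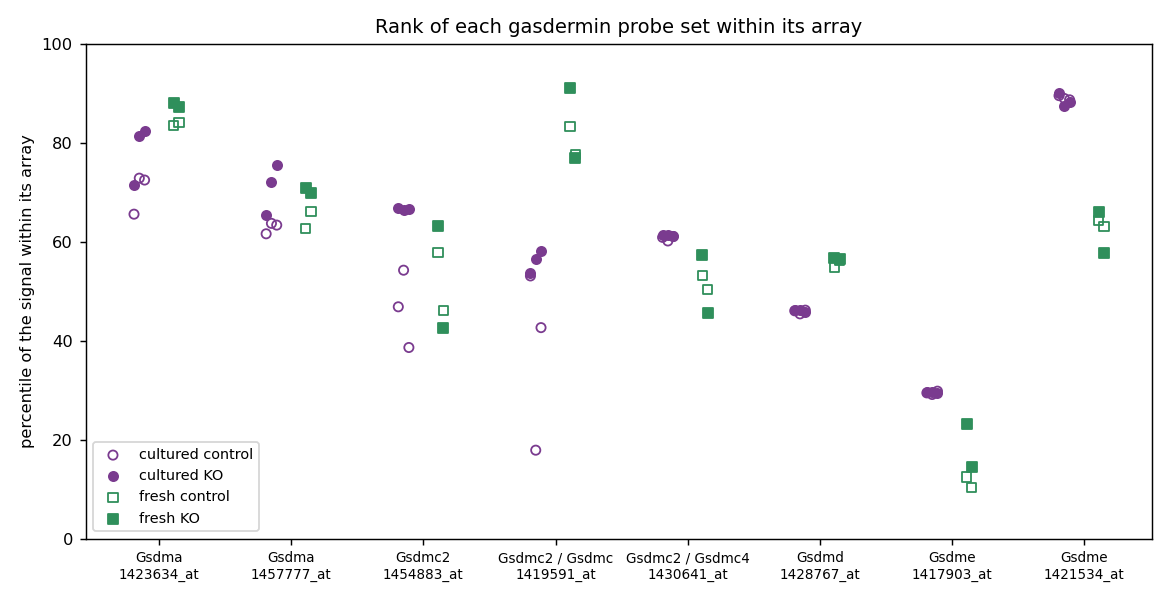
Percentile of each gasdermin probe set within its array, from 0 to 100, for cultured (circles) and fresh (squares) arrays, open for control and filled for KO. Gsdme 1421534_at lies at 87.4 to 90.1 on cultured arrays, above the fresh range of 57.8 to 66.0, and the probe set of Gsdmc2 and Gsdmc shows the opposite order.

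Most probe sets of the other family members lay at the floor in culture and below the median in fresh cells. Gsdma2, the neighbour of Gsdma, had 5 probe sets, of which 4 lay at the floor on the cultured arrays and 1432140_at read 37.9 to 50.1 in culture and 69.2 to 78.2 in fresh cells. The pseudogenes of the Gsdmc cluster had 6 probe sets, all under 7 units in culture. In fresh cells 1432930_at of the pseudogene Gsdmcl2 read 81.55 to 98.2, above the array medians, and the others lay below the median. Of these 11 probe sets, 1 passed the filter in culture and 2 in fresh cells, and 0 were called by limma in either condition. No probe set annotated to Gsdma3 or to Pjvk, the gene for pejvakin, was found.

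The genes whose deviations from the condition mean tracked each member most closely over the 10 arrays were listed by Pearson correlation among 9800 genes. Both genotypes were centred together, so the change between KO and control enters each correlation, for Gsdmc2 the contrast already known. The listed genes are a description of these arrays, and they share the arrays on which they were read. For Gsdma they were Fbxo25 (0.98), Gsta4 (0.97) and Sprr1a (0.97), the last a cornified envelope precursor gene. For Gsdmc2 they were Senp8 (0.99), Ifi35 (0.98) and Rrp36 (0.98). For the probe set of Gsdmc2 and Gsdmc they were Fbxw17 (0.95), Samhd1 (0.95) and Ipp (0.94), and for that of Gsdmc2 and Gsdmc4 Atp11b (0.90), Gnai3 (0.87) and Jak1 (0.87). For Gsdme they were Mettl2 (0.98), Rdh14 (0.91) and Nelfa (0.89). The lists of Gsdma and of the Gsdmc probe sets had no gene in common. Nothing is read from that, since each list holds only 3 of 9800 genes.

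The genes upstream and downstream of the gasdermins were read from a list of 57 inflammasome and pyroptosis genes, of which 45 had a probe set with a single symbol. In culture 29 passed the filter and limma called 0, beside 0.273% of all probe sets. At an unadjusted p under 0.05 there were 3 higher and 6 lower, beside 15.6% of all probe sets in either direction. Their median log2 change was -0.02, and that of all probe sets -0.01. In fresh cells 27 passed, 0 were called, 3 were higher and 6 lower at an unadjusted p under 0.05, beside 12.9% of all probe sets, and the medians were 0.08 and 0.00.

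Casp1, the protease that cuts Gsdmd in inflammasomes, was higher in KO cells in both conditions without passing the threshold. In culture it read 17.5, 15.5 and 16.7 in controls and 41.9, 108 and 130.3 in KO (log2 change 2.34, SE 0.43, limma adjusted p = 0.109), from a control level near the floor. In fresh cells it read 319 and 233 in controls and 595 and 550.1 in KO (log2 change 1.07, SE 0.18, limma adjusted p = 0.249). All KO arrays exceeded all controls in both. It passed in culture without KO replicate 1 (limma adjusted p = 0.00678), with array weights (limma adjusted p = 0.041) and in 1 fit over 10 arrays (limma adjusted p = 0.0213). Casp1 passed in no other setting tried in culture. Casp4, the non-canonical inflammatory caspase, was at the floor in culture and at a log2 change of 0.50 in fresh cells (limma adjusted p = 0.415), and Casp8 at -0.12 and 0.08 (limma adjusted p = 0.591 and 0.864).

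Among sensors and adaptors, Nlrp10 read 226, 71.0 and 105 in cultured controls and 321, 567 and 439 in KO (log2 change 1.85, SE 0.46, limma adjusted p = 0.168). In fresh cells it read 645 and 782 in controls and 448 and 315 in KO (log2 change -0.92, SE 0.21, limma adjusted p = 0.287). KO arrays lay above the controls in culture and below them in fresh cells. The fresh log2 change of Nlrp10 was -1.175 with KO replicate 2 as the lone KO array, and -0.67 with KO replicate 1 alone. Pycard, the adaptor that joins sensors to Casp1, read 121, 438 and 447 in cultured controls and 112, 43.7 and 124 in KO, with overlap at control replicate 1 (log2 change -1.77, SE 0.65, limma adjusted p = 0.286). In fresh cells it read 8417 and 7662 in controls and 10400 and 8550 in KO, higher without overlap (log2 change 0.23, limma adjusted p = 0.447). Averaged over all its probe sets, cultured Pycard was at -0.58. Pycard is named after its values were seen. Nek7, a kinase that binds the sensor Nlrp3, was lower in both conditions, at -0.37 and -0.34 (limma adjusted p = 0.309 and 0.317). Averaged over all its probe sets, cultured Nek7 was at -0.18.

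Of the interleukin-1 family, Il1f8 (also called Il36b), an epithelial cytokine, read 19.2, 85.4 and 45.8 in cultured controls and 228, 561 and 548 in KO (log2 change 3.29, SE 0.63, limma adjusted p = 0.113). It passed with array weights and in 1 fit over 10 arrays (limma adjusted p = 0.0424 and 0.0249), and in no other setting tried in culture. The receptor gene Il1r1 read 326 ± 100.3 in cultured controls and 158 ± 12.8 in KO (SD, n = 3), with a limma adjusted p = 0.160 for a log2 change of -1.003. Averaged over all probe sets of Il1r1 the change was -0.50 (limma adjusted p = 0.136). Its relative Il1rl2, the receptor for the IL-36 cytokines, was at -0.80 (limma adjusted p = 0.284). Il18, a cytokine processed by Casp1, lay at the floor in cultured controls. In fresh cells it read 972 and 1252 in controls and 743 and 406 in KO (log2 change -1.01, SE 0.30, limma adjusted p = 0.320). The change was -1.44 with KO replicate 2 as the lone KO array, and -0.57 with KO replicate 1 alone. The lowest Il18 value was on the array on which the Langerhans and myeloid sum was also lowest. The part of those cells in Il18 was not tested.

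Among genes of death signalling and membrane rupture, Fadd, a death receptor adaptor, was at a log2 change of -0.45 in culture (limma adjusted p = 0.179), and Panx1, a channel cut by caspases, at -0.27 (limma adjusted p = 0.218). Mlkl, the pore-forming effector of necroptosis, read 2105 ± 663 in cultured controls and 3316 ± 814 in KO (SD, n = 3), with a limma adjusted p = 0.346 for a log2 change of 0.67. In fresh cells the necroptosis kinase gene Ripk3 was at 0.61 (limma adjusted p = 0.331), Map3k7 at 0.40 (limma adjusted p = 0.352), or 0.12 averaged over its probe sets, and the interferon response factor gene Irf1 at -0.31 (limma adjusted p = 0.373). Ninj1, which ruptures the membrane after pore formation, read 2197 ± 218 in cultured controls and 2065 ± 205 in KO (SD, n = 3), with a limma adjusted p = 0.732 for a log2 change of -0.09.

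**Figure D5:**
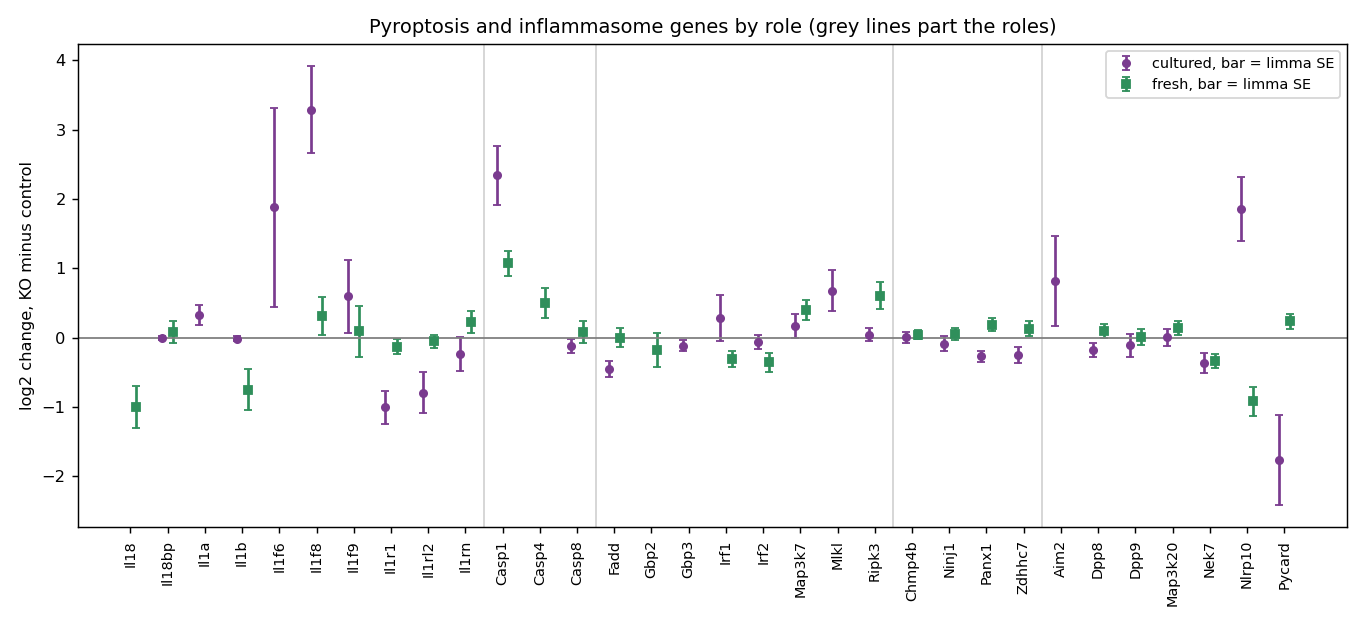
Log2 change, KO minus control, of the inflammasome and pyroptosis genes that passed the filter, by role from left to right: interleukin-1 family, caspases, death signalling, membrane rupture, and sensors with adaptors. Bars are limma's standard errors. Casp1 lies above 0 in culture and in fresh cells (2.34 and 1.07), and Nlrp10 lies on opposite sides (1.85 and -0.92).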

How the data were processed

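The deposited table holds 1 linear intensity per probe set and array of the GeneChip Mouse Genome 430 2.0, calculated by the authors with MAS5, per the submitters' processing notes, under settings that those notes leave out. The platform annotation gave the symbols, and its Entrez identifiers were looked up in the RefSeq gene table of GRCm38.p6, which served for names and gene order only. Of 45037 probe sets 34945 had 1 symbol, 932 several and 9160 none.

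The log2 of each intensity was taken without an offset. Those above their array's median on at least 2 arrays of a condition were kept, and KO was compared with control by limma 3.58.1 in R 4.3.3 (lmFit, eBayes with a mean-variance trend, 2-sided, Benjamini-Hochberg over all probe sets kept, threshold 0.05), separately for cultured and fresh arrays. Precision is limited by having only 2 or 3 arrays in a group. A pathway gene was read by its probe set with the highest mean log2 over the 10 arrays. Alternatives were other filters, centring, offsets, fits, thresholds, averaging the probe sets of each gene and the omission of each array.

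Named genes were all members, the other gasdermin genes, the pathway genes past the threshold or with the 4 smallest p in each direction and condition, and the 3 genes most correlated with each member. Pathway genes outside that rule (Casp8, Pycard, Ninj1, Zdhhc7 and Dpp8) were chosen for their role or after their values were seen. The members and lists were chosen with earlier results of these data known. In the RefSeq promoter windows held for 2 members, Gsdmc3 and Gsdme (GRCm38.p6, 250 bases), no TGANTCA (AP-1), GGAATG (TEAD), GGGTGTGG (KLF) or TATAAA was found on either strand, and 6.75%, 12.6%, 3.2% and 12.4% of all 32851 windows held them.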

Additional observations from a re-analysis of the deposited data

Results flagged for a closer look

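Of 24 pathway genes tested in both conditions, 4 had KO arrays wholly on one side of the controls in culture and wholly on the other in fresh cells. Over all probe sets tested, groups separated in either direction for 22.3% in culture and 46.9% in fresh cells. The share of all probe sets split in opposite ways was not computed, so nothing is read from the count. Nlrp10 was higher in cultured KO, with a log2 change of 1.85, and lower in fresh KO, at -0.92. The other genes were lower in cultured KO and higher in fresh KO. Panx1 was at -0.27 and 0.19, Zdhhc7 at -0.25 and 0.12, and Dpp8 at -0.18 and 0.09. Averaged over all probe sets of the gene, the cultured values of Zdhhc7 and Dpp8 were -0.13 and -0.09. None of the 4 passed limma's threshold in either condition with all arrays in the fit, and the difference between the conditions was not tested. No gasdermin probe set that passed the filter in both conditions was split in this way.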

How the results depend on the processing

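Over 13 gasdermin values and 188 alternative fits, 179 kept direction and side of the threshold, 6 changed sign, each by leaving out a single array, and 3 lost the Gsdmc2 call. Those were the fits without control replicate 3 (log2 change 3.58), KO replicate 2 (3.74) and KO replicate 3 (3.76). Direction could not change with other filters, in 1 fit over 10 arrays, with no trend or with a replicate block, which leave the log2 change as it was. Fits in which a probe set no longer passed the filter are not counted. Fresh Gsdmc2 thus had 11 alternatives against 14 for fresh Gsdma, and lacked the omissions of control replicate 1 and KO replicate 1. The count of gasdermin probe sets called in culture was 0 to 1 without single arrays and 0 at an adjusted p under 0.01. The count over all cultured probe sets, 62, was 0 to 95 without single arrays: omitting control 3, KO 2 or KO 3 gave 0, omitting control 2 gave 1, control 1 gave 26 and KO 1 gave 95. It was 2 with no filter, 124 with the 60th percentile filter, 128 with 75th percentile centring, 6 with values under 16 set to 16, 512 in 1 fit over 10 arrays, 7 with no trend, 299 with array weights and 0 at an adjusted p under 0.01. In fresh cells 0 became 410 in 1 fit over 10 arrays and 0 to 945 without single arrays, 945 with KO 1 omitted and 11 with KO 2 omitted, with 0 gasdermins among them. Pathway genes called in culture went from 0 to 3 in 1 fit over 10 arrays, 2 with array weights, and 0 to 1 without single arrays, and in fresh cells 0 to 3 without single arrays. The causes were not tested. Leaving out an array of a fresh group leaves a lone sample, assumed to vary like the others.

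With a replicate block the cultured count was 17, Gsdmc2 kept its call (log2 change 3.75), and no other gasdermin was called. Same-numbered cultured arrays deviated together at r = 0.322, 0.0809 and 0.249, control replicate 2 correlated best with KO replicate 3, and fresh arrays gave -0.0548, so the numbers were not taken to pair the samples.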
